A study of Mus musculus with 99 samples.

Results

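The BXD strains are recombinant inbred mice, each a homozygous mosaic of C57BL/6J and DBA/2J. The groups were chosen by the measured heart level of Hamp2, a hepcidin gene on chromosome 7. A family was placed in the Hamp2-high group when the measured Hamp2 level (the brighter of 2 probe sets) stood above 7.76 log2 units, the midpoint between the arrays of C57BL/6J and DBA/2J, and in the Hamp2-low group otherwise. Of the 29 BXD families, 13 were Hamp2-high and 16 were Hamp2-low, and the whole series held 99 arrays. All mice were untreated males on a chow diet, with heart as the labelled tissue and 1 Affymetrix HT_MG-430A array per strain. The protocol in the labels gives an age of 16 weeks for all mice, while the age label of the BXD arrays runs from 56 to 109 weeks. Over this range the label rises by 1 week with each successive array of the series, whatever the strain. It therefore reads as a running number, and the age rests on the protocol alone. BXD24/TyJ and BXD24/TyJ-Cep290<rd16>/J, which carries the rd16 allele of Cep290, were averaged into 1 family in the Hamp2-low group. BXD29-Tlr4<lps-2J>/J, which carries an allele of Tlr4, was also Hamp2-low. No strain had a second array, so the p-values measure the spread between strains, technical spread included, and the number of arrays limits the precision.

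Hepcidin is a peptide hormone, made mainly by the liver and also in the heart, that binds the iron exporter ferroportin and causes it to be internalised and degraded. Mice carry a pair of hepcidin genes, Hamp and Hamp2, which are neighbouring copies of similar sequence. Their proteins were not compared here. Hamp transcription in the liver is raised by bone morphogenetic protein signals through SMAD proteins and by interleukin-6 through STAT3. A strain inherits long stretches of a chromosome from 1 parent, so genes close to Hamp2 tend to come from the same parent as Hamp2 itself.

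The start regions of the 2 genes are shown because the copies differ at the element through which SMAD proteins act. They are the 250 bases before each start in RefSeq on GRCm38.p6, which is the C57BL/6J genome, the parent with the low Hamp2 level. Hamp2 lies at chr7:30924182-30924431 and Hamp at chr7:30944030-30944279, both on the minus strand. Capitals mark the element GGCGCC of Hamp with the bases aligned to it in Hamp2, and after it the STAT element TTCNNNGAA, given 5′ to 3′.
Hamp2: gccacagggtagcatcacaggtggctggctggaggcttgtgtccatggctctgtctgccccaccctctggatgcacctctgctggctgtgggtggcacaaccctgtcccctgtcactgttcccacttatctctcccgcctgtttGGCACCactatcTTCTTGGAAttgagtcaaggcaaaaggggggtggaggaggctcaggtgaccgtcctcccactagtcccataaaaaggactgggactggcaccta
Hamp: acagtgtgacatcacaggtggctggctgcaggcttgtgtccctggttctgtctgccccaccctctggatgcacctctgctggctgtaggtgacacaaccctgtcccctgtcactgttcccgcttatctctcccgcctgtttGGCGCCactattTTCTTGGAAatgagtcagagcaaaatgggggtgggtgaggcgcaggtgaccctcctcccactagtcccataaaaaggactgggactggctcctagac
The windows were identical at 227 of 253 aligned positions (89.7%), with 20 mismatched and 6 gapped positions. The element carried the substitution G145A in Hamp2, counted from 1 at the 5′ end of the Hamp window, so that Hamp2 read GGCACC there. The STAT element read TTCTTGGAA in both. On either strand, GGCGCC was found in 9.54% and TTCNNNGAA in 7.18% of the 27025 mouse promoter windows, cut to the same 250 bases. These letters describe the windows only, and the DBA/2J sequence was not used here.

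Hamp2 itself was used for the split and is described without a test. It ran from 8.11 to 11.43 log2 units with a median of 11.03 in the Hamp2-high families, against 4.30 to 6.14 with a median of 5.06 in the Hamp2-low families. The parental arrays stood at 11.22 in DBA/2J and 4.29 in C57BL/6J. Just inside the threshold were BXD42 at 8.11 and BXD15 at 9.72, and just outside it BXD13 at 6.14 and BXD8 at 5.81. The members of the BXD24 pair differed, at 6.17 in BXD24/TyJ-Cep290<rd16>/J and 4.44 in BXD24/TyJ, and both were under the midpoint. A second Hamp2 probe set did not follow the first, with means of 3.34 in Hamp2-high and 3.33 in Hamp2-low families, close to the floor of the array.

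BXD42, the family nearest to the threshold, also stood high for liver genes. The mean of 10 liver genes on the array was 9.95 log2 units in BXD42, 6.19 above the median array, with albumin (Alb) at 11.79. Among the other panels, BXA16 and BXA8 were above the midpoint at 7.96 and 8.16, and their liver means stood 5.47 and 5.94 above the median array. AXB13, at 7.37, had a liver mean 5.88 above it. CAST/EiJ had a liver mean 7.50 above the median array and a Hamp2 level of 5.99, and AXB10 had 5.33 and 6.16. BXD12 was high for both, with Hamp2 at 11.43 and a liver mean 6.33 above the median array. The part of liver RNA in these Hamp2 levels was not tested. Markers of another organ stood over 2 log2 units above the median array in 6 of 13 Hamp2-high and 4 of 16 Hamp2-low families. The array of DBA/2J also stood 5.14 above the median array for airway genes, which touches every comparison with that parent. The main results are also given without BXD42 and without the BXD arrays with markers of another organ.

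**Figure D1:**
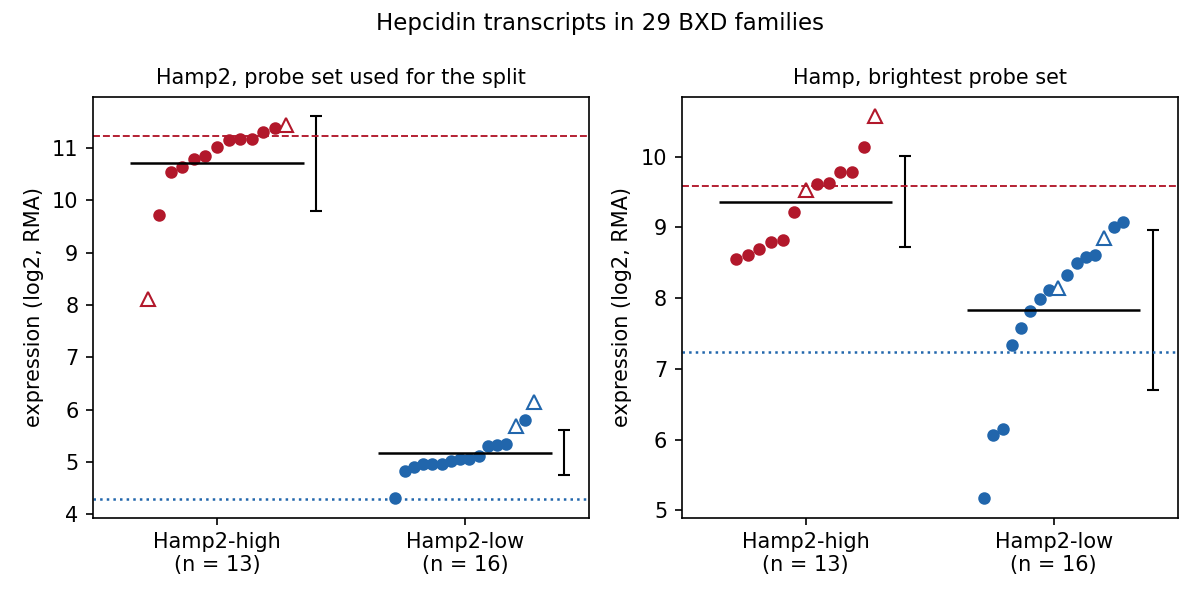
Levels of Hamp2 (left, the probe set used for the split) and of Hamp (right) in log2 units in 13 Hamp2-high (red) and 16 Hamp2-low (blue) BXD families. Open triangles are families whose liver list stood over 2 log2 units above the median array, black lines are means with the SD beside them, and the lines across are DBA/2J (dashed) and C57BL/6J (dotted). Hamp2 leaves a gap from 6.14 to 8.11, while the groups overlap for Hamp.

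With Hamp2 left out, 7512 genes were tested with limma, and 0 passed a Benjamini-Hochberg adjusted p of 0.05 (0% of genes). The smallest adjusted p was 0.0618, and 508 genes had an unadjusted p under 0.05 (6.76%), 273 higher and 235 lower in Hamp2-high families. Without BXD42, limma called 8 genes (0.106%), of which 6 were higher (0.0799%) and 2 lower (0.0266%), and all 8 lie on chromosome 7. Without the arrays that carried markers of another organ it called 0 genes, with 314 at an unadjusted p under 0.05. In the full split, 14 genes had an adjusted p under 0.10 (0.186%), 9 higher (0.12%) and 5 lower (0.0666%), of which 12 lie on chromosome 7 and 2 on chromosome 11. All 14 differed with the sign of DBA/2J minus C57BL/6J, a comparison of 1 array each, against 3911 of all 7512 tested genes (52.1%). The genes past these looser thresholds were chosen after their values had been seen.

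At an unadjusted p under 0.001, 21 genes remained in all (0.28%), and 13 of them were among the 554 tested genes of chromosome 7 (2.35%), against 8 of 6958 on the other chromosomes (0.115%). All 13 lie within 600 annotated genes of Hamp2, where 173 genes were tested. That limit was not planned beforehand and lies just past the farthest of the 13. That 0 of 381 passed beyond it therefore follows from the choice, and 35 of those 381 (9.19%) had an unadjusted p under 0.05. Beyond 300 annotated genes, a limit planned beforehand, 6 of 466 passed (1.29%). Within 25 annotated genes of Hamp2, 4 of 12 tested genes passed. The 13 genes on chromosome 7 had the sign of the parental difference in 13 cases, against 3 of 8 on other chromosomes. Among all tested genes, 336 of 554 on chromosome 7 (60.6%) and 3575 of 6958 on other chromosomes (51.4%) had that sign. On chromosome 7 this share did not depend on the 600-gene limit, with 105 of 173 genes within it (60.7%) and 231 of 381 beyond it (60.6%).

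**Figure D2:**
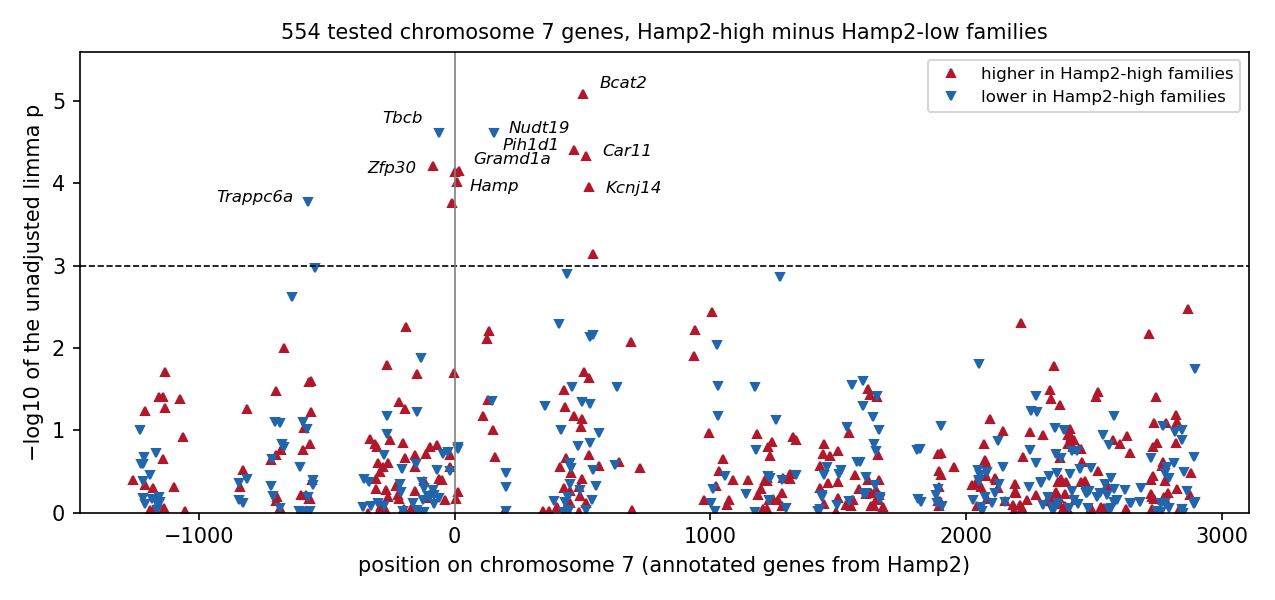
Unadjusted limma p on a −log10 scale for the 554 tested genes of chromosome 7, by position in annotated genes from Hamp2, with the dashed line at 0.001. Red triangles point up for genes higher and blue triangles down for genes lower in Hamp2-high than in Hamp2-low families. All 13 genes above the line lie within 600 genes of Hamp2, a limit not planned beforehand.

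Hamp, the gene of the circulating hormone, lies 2 annotated genes after Hamp2. It ran from 8.55 to 10.58 log2 units (median 9.53) in Hamp2-high families, against 5.17 to 9.07 (median 8.13) in Hamp2-low families. The ranges overlapped, and 5 of the 16 Hamp2-low families were within the range of the Hamp2-high families. The difference of 1.53 log2 units (SE 0.33, 95% interval 0.85 to 2.22) missed the threshold, with a limma adjusted p of 0.0686, and it was 0.105 without BXD42. Without the arrays that carried markers of another organ the difference was 1.74, with an adjusted p of 0.416. A second Hamp probe set differed by 1.54. The transcripts of similar copies may share probes, so the Hamp values are uncertain as a measure of Hamp alone.

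Of the 10 tested genes nearest to Hamp2, which reach 17 annotated genes from it, 4 had a limma adjusted p under 0.10, namely Hamp, Fxyd5, Tmem147 and Gramd1a. Fxyd5, a regulatory subunit of the sodium pump, had a median of 5.72 in Hamp2-high and 5.33 in Hamp2-low families (difference 0.37, adjusted p 0.0814). Gramd1a, a sterol transfer protein of the endoplasmic reticulum, ran from 6.82 to 7.69 in Hamp2-high families, against 6.30 to 7.15 in Hamp2-low families. Its difference was 0.43 (SE 0.09, limma adjusted p 0.0686, and 0.0323 without BXD42). The other 6, namely Usf2, Cd22, Fxyd1, Lgi4, Fxyd3 and Rbm42, had differences from -0.09 to 0.14 and adjusted p from 0.691 to 0.959. Neighbours on both sides of Hamp2 were among these 6, including Usf2, a transcription factor 3 genes away.

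Farther out, Bcat2, the mitochondrial transaminase that starts the breakdown of branched-chain amino acids, lies 501 genes after Hamp2. It ran from 5.04 to 9.02 (median 8.68) in Hamp2-high families and from 5.67 to 6.35 (median 6.00) in Hamp2-low families. In 10 of 13 Hamp2-high families Bcat2 was above every Hamp2-low family, and BXD42, BXD15 and BXD36 were not. The difference was 1.87 log2 units (SE 0.35, 3.67-fold, limma adjusted p 0.0618), and without BXD42 it was 2.11 (adjusted p 0.000639). The parental arrays gave 8.58 in DBA/2J and 5.92 in C57BL/6J. When arrays with lower and higher title numbers, whose meaning is not given, were fitted apart, Bcat2 differed by 1.31 (limma adjusted p 0.580) and 2.37 (adjusted p 0.0144).

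Close to Bcat2 lie 3 more genes that were called as higher in Hamp2-high families without BXD42. Pih1d1, a subunit of a chaperone complex that works with HSP90, had medians of 7.19 and 6.66 in Hamp2-high and Hamp2-low families (difference 0.42, adjusted p 0.0686, and 0.0323 without BXD42). Car11, a relative of the carbonic anhydrases without their enzyme activity, had medians of 4.67 and 4.15 (difference 0.55, adjusted p 0.0686, and 0.00701 without BXD42). Kcnj14, an inward rectifier potassium channel, ran from 2.96 to 6.36 in Hamp2-high families, against 3.09 to 3.65 in Hamp2-low families. In 8 of 13 Hamp2-high families it was above all Hamp2-low families (difference 1.27, adjusted p 0.0824, and 0.0306 without BXD42).

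Before Hamp2 in the order, Zfp30, a KRAB zinc finger protein 84 genes away, ran from 3.90 to 6.84 in Hamp2-high families, against 3.84 to 4.89 in Hamp2-low families. It was above every Hamp2-low family in 8 of 13 Hamp2-high families, with a difference of 1.31 (SE 0.28, limma adjusted p 0.0686, and 0.0306 without BXD42). Tbcb, a tubulin folding cofactor 60 genes away, was on the other side, at 8.28 to 9.01 (median 8.47) in Hamp2-high and 8.63 to 9.21 (median 9.00) in Hamp2-low families. It differed by -0.39 (adjusted p 0.0618, and 0.0306 without BXD42). Nudt19, which hydrolyses coenzyme A and lies 155 genes after Hamp2, had medians of 6.75 in Hamp2-high and 7.35 in Hamp2-low families. It differed by -0.59 (adjusted p 0.0618, and 0.0306 without BXD42), and 14 of 16 Hamp2-low families were above all Hamp2-high families. Its other probe set differed by -1.10. Trappc6a, a vesicle tethering subunit 573 genes before Hamp2, differed by -0.63 (adjusted p 0.0931).

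None of the 8 genes called without BXD42 was called by limma once the arrays with markers of another organ were left out. Bcat2 then differed by 2.01 (adjusted p 0.233), Car11 by 0.63 (0.354), Pih1d1 by 0.38 (0.416) and Gramd1a by 0.40 (0.482). Tbcb differed by -0.37 (adjusted p 0.482), Zfp30 by 1.14 (0.619), Kcnj14 by 1.24 (0.619) and Nudt19 by -0.55 (0.630). The differences kept their sign in this smaller set of families.

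Hpn, the serine protease hepsin, was not tested in the main comparison because its mean of 3.46 over all arrays was under the filter of 3.59. Without the filter it was called, with a difference of 0.41 (SE 0.07) and a limma adjusted p of 0.00653 over 11724 genes. It lies 15 genes after Hamp2 and was named after its values were seen. Its levels of 3.45 to 4.18 in Hamp2-high and 3.07 to 3.66 in Hamp2-low families lie near the lower end of what the array measures.

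The parental arrays differed by at least 1 log2 unit at 20 tested chromosome 7 genes, of which 14 lie within 600 genes of Hamp2. Each family was placed on the side of DBA/2J or C57BL/6J at each gene by the midpoint of the 2 parents. Families on the same side as for Hamp2 numbered from 12 to 25 of 29, and 8 genes reached at least 20. Bcat2 reached 25. At Hamp, 13 of 13 Hamp2-high families and 6 of 16 Hamp2-low families were on the DBA/2J side. The counts did not follow distance alone. At Ndn, 973 genes after Hamp2, they were 9 of 13 and 13 of 16, and at Cyp2e1, 2715 genes after it, 11 of 13 and 4 of 16, with 23 of 29 families on the same side as for Hamp2. Nearer to Hamp2, Zfp568 (71 genes before) had 9 of 13 and 9 of 16, and Kcnj11 (539 genes after) had 12 of 13 and 13 of 16. At Cyp2a5 and at Cyp2f2, 6 families each were on the DBA/2J side, and all 6 had an airway or liver list over 2 log2 units above the median array. Cyp2e1 was highest in BXD42 (9.92) and BXD12 (9.70), whose liver lists also stood over 2 log2 units above the median array. Its difference was 1.44 in all families and 1.41 without the arrays that carried markers of another organ. The part of other tissue in the sides at Cyp2a5, Cyp2f2 and Cyp2e1 was not tested. The same holds for the DBA/2J levels of 7.43 for Cyp2a5 and 9.48 for Cyp2f2.

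The families are described along the chromosome at 6 flanking genes (Trappc6a, Zfp30, Pih1d1, Bcat2, Kcnj14 and Ush1c). These were chosen after their values were seen, among the genes with most families on the same side as for Hamp2, so their agreement with the split follows from the choice. Among the Hamp2-high families, 5 were on the DBA/2J side at all 6, namely BXD2, BXD14, BXD31, BXD32 and BXD38. BXD27 and BXD15 were on that side at none of the 6. Hamp2 stood at 11.17 in BXD27 and at 9.72 in BXD15, against the C57BL/6J side of Bcat2, where they had 6.40 and 5.81. Both were on the DBA/2J side at Nudt19, with 6.75 in BXD27 and 6.65 in BXD15, as were all 13 Hamp2-high and 3 of 16 Hamp2-low families. Genes nearer to Hamp2 were mixed. At Fxyd5 and Tmem147 both families were on the DBA/2J side, and at Tbcb both were on the C57BL/6J side (8.83 and 9.01). At Gramd1a, BXD27 was on the DBA/2J side (7.69) and BXD15 on the C57BL/6J side (7.05). Of the 16 Hamp2-low families, 8 were on the DBA/2J side at 1 of these 6 genes and 8 at none.

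Other Hamp2-high families were on different sides at different genes. BXD36 was high for Zfp30 (6.80) and low for Bcat2 (5.99). BXD28 and BXD33 were low for Zfp30 (4.17 and 4.26) and high for Bcat2 (8.96 and 9.00). BXD6 had Bcat2 at 8.80 and Kcnj14 at 3.16. BXD28, BXD6 and BXD42 were on the DBA/2J side at Trappc6a, with 4.45, 4.18 and 4.76. BXD42 was also on that side at Ush1c (4.27) and on the C57BL/6J side at the other 4, Zfp30 (4.43) and Bcat2 (5.04) among them. Levels stand in for genotypes in these counts, and no genotypes were used.

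**Figure D3:**
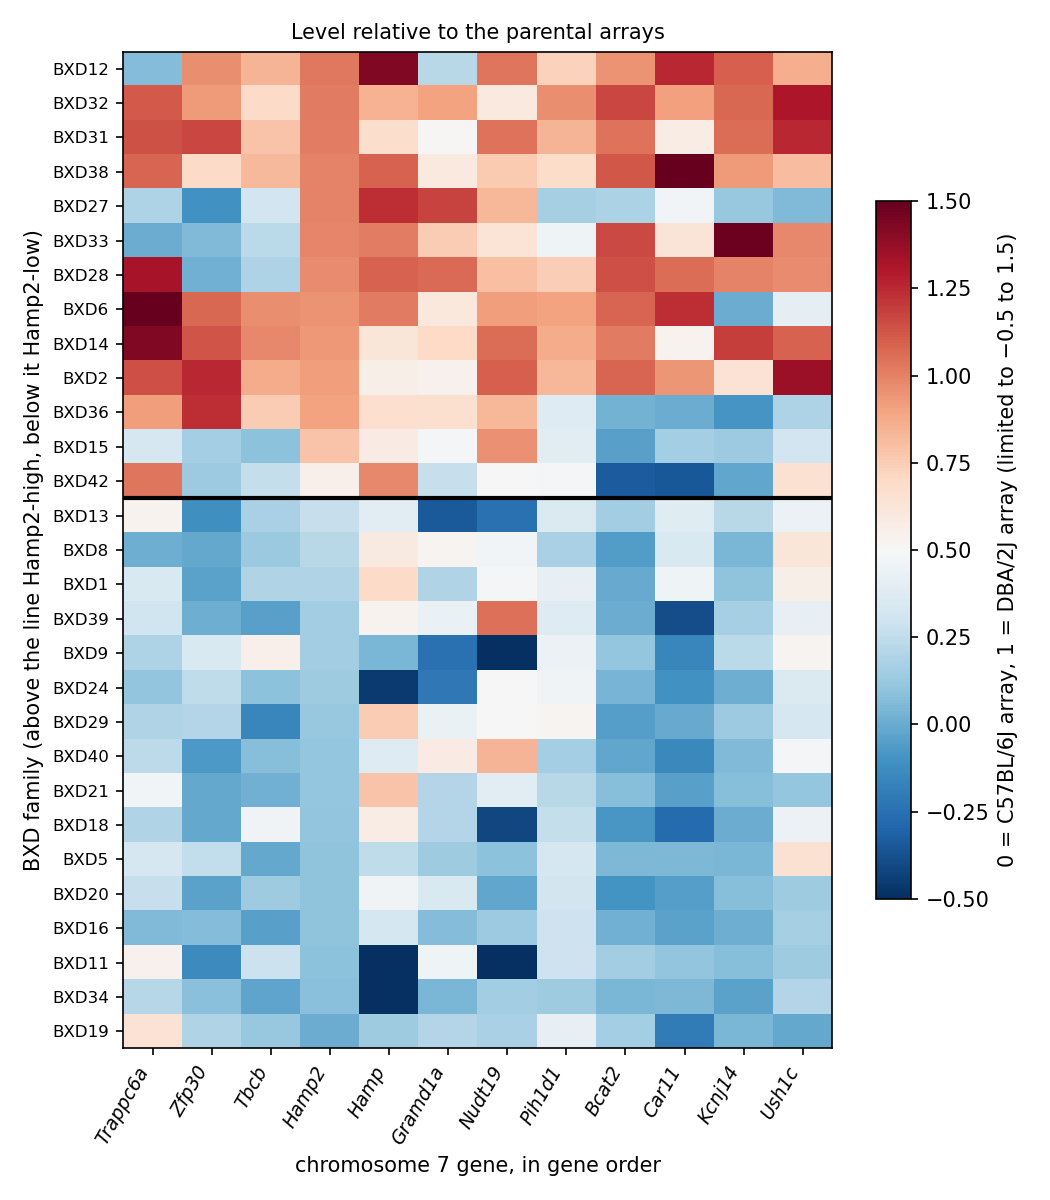
Level of 12 chromosome 7 genes in gene order (columns) in each BXD family (rows), on a colour scale where 0 is the C57BL/6J array and 1 the DBA/2J array, limited to the range from −0.5 to 1.5. Rows above the black line are Hamp2-high and rows below it Hamp2-low, each ordered by Hamp2, and BXD27 and BXD15 are Hamp2-high rows at the C57BL/6J level for Zfp30 and Bcat2.

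Genes of iron metabolism were described by 4 lists, covering iron uptake, storage and export, hepcidin and its regulators, haem, and iron-sulphur clusters. Of 74 tested genes, 0 passed the adjusted p of 0.05 in limma (0% of all genes), and 5 were higher and 0 lower at an unadjusted p under 0.05, against 3.63% and 3.13% over all tested genes. The median difference of the 74 genes was 0.04, against 0.00 for all tested genes. Of the 74, 46 were positive and 28 negative, against 3781 positive and 3731 negative of all 7512 tested genes. The 5 genes were Hamp, Hp, Smad4, Cebpa and Aco1. Hp, the plasma protein that binds free haemoglobin, ran from 4.23 to 8.60 (median 6.38) in Hamp2-high families, against 3.87 to 7.05 (median 5.20) in Hamp2-low families. Its difference of 1.14 (SE 0.36) had a limma adjusted p of 0.475, and it was 0.93 without the arrays that carried markers of another organ. Cebpa, a regulator of liver and fat genes that lies 133 genes after Hamp2, differed by 0.37 (adjusted p 0.592). Aco1, an iron sensor that binds messages of iron genes, differed by 0.19 (adjusted p 0.644). Smad4, the partner of the SMAD proteins activated by bone morphogenetic proteins, differed by 0.22 at its brightest probe set, and its 2 other probe sets by -0.22 and 0.16.

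For 9 central iron genes, Usf2 included, limma adjusted p ran from 0.792 to 0.960, and the intervals bound what the comparison could have missed. Slc40a1, the iron exporter that hepcidin removes, differed by 0.09 (95% interval -0.22 to 0.40), and its other probe set by -0.10. Tfrc, the transferrin receptor, differed by -0.15 (-0.71 to 0.41). The ferritin subunit Fth1 differed by 0.06 (-0.04 to 0.16) and Ftl1 by 0.17 (-0.03 to 0.38). Of the bone morphogenetic protein pathway, the ligand Bmp6 differed by 0.05 (-0.22 to 0.32) and the targets Id1 and Smad7 by 0.04 (-0.16 to 0.24) and 0.08 (-0.09 to 0.25). Hmox1, the haem-degrading oxygenase, had the widest interval of these (-0.96 to 0.59). Tfr2, the second transferrin receptor, was under the filter and was not tested.

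**Figure D4:**
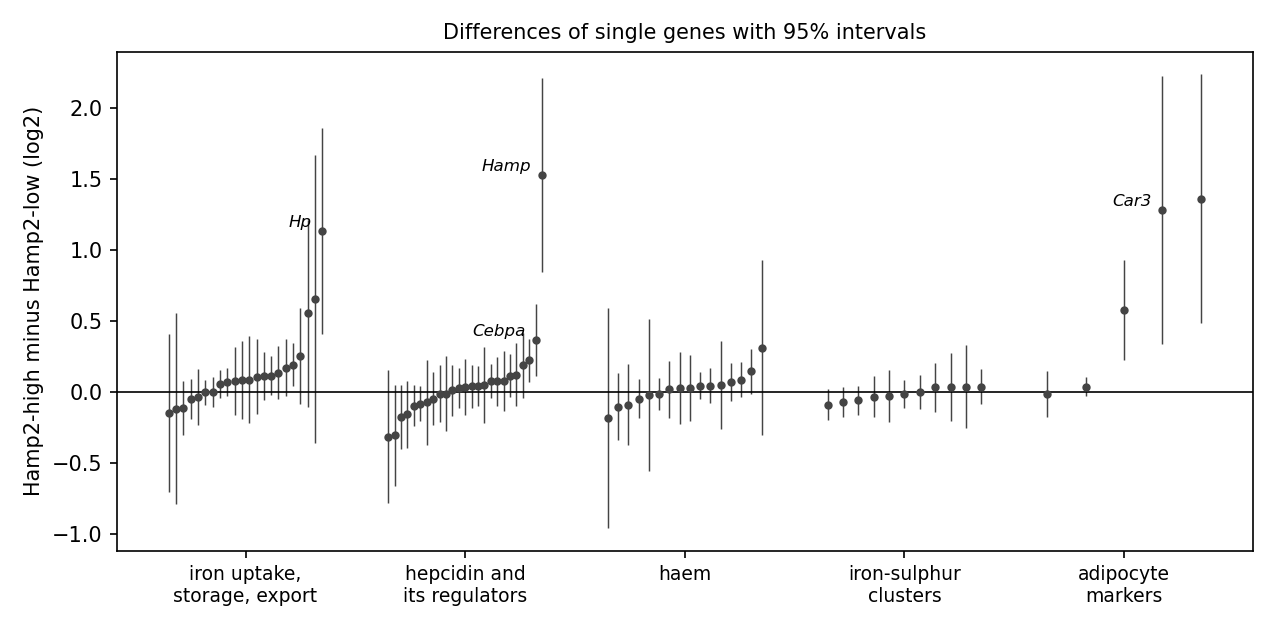
Hamp2-high minus Hamp2-low difference (log2 units) of each tested gene of the 4 iron lists and of the adipocyte list, with 95% intervals. Hamp lies highest at 1.53, and most of the other genes lie near 0.

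Fat marker genes were set beside these values. Of 5 tested adipocyte genes, 3 were higher in Hamp2-high families at an unadjusted p under 0.05, against 3.63% of all tested genes, and 0 were called by limma. These were Adipoq (adiponectin, difference 1.37), Car3 (carbonic anhydrase 3, 1.28) and Retn (resistin, 0.58), while Fabp4 and Lpl differed by -0.01 and 0.04. The mean of the whole list ran from 6.28 to 7.48 (median 7.14) in Hamp2-high families, against 6.06 to 7.33 (median 6.61) in Hamp2-low families. The median of the adipocyte genes was 0.58, and 0.91 without the arrays that carried markers of another organ. All 10 tested liver genes had positive differences (median 0.63), as had 3781 of all 7512 tested genes. The median of the liver genes was -0.16 without those arrays. Of 7 tested fast muscle genes, 6 had positive differences (median 0.96), and the median was 0.11 without those arrays. Among 4 tested brown fat genes, 4 had positive differences (median 0.15, and 0.23 without those arrays). Among 4 tested B cell genes, 2 were higher at an unadjusted p under 0.05 (median of the 4 genes 0.11, and 0.04 without those arrays). Of these 2, Cd22 lies 3 annotated genes before Hamp2, so it also counts as a neighbour of the gene used for the split. In bulk tissue, fewer cells of a type and less RNA per cell cannot be told apart. The part of fat or liver RNA in the differences of Hp and Cebpa was not tested. The heart markers differed little, with list means of 12.63 to 12.79 in Hamp2-high and 12.65 to 12.79 in Hamp2-low families, and of 40 tested oxidative phosphorylation genes 0 were called, with 1 lower at an unadjusted p under 0.05.

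On chromosome 11, Pttg1 (securin, the inhibitor of the protease separase) and Cyfip2 (a subunit of the WAVE actin complex) also had an adjusted p under 0.10. They lie 41 places apart in gene order. Pttg1 ran from 5.26 to 11.68 (median 6.28) in Hamp2-high families, against 5.34 to 12.08 (median 11.82) in Hamp2-low families, and the ranges overlapped. It differed by -3.48 (SE 0.81, limma adjusted p 0.0931), and its other probe sets by -1.22 and -2.25. Cyfip2 ran from 3.02 to 6.44 in Hamp2-high families, against 3.53 to 7.54 in Hamp2-low families, and differed by -1.97 (adjusted p 0.0915). For both genes, 12 of 13 Hamp2-high families and 5 of 16 Hamp2-low families were on the DBA/2J side, and BXD33 was the exception among the Hamp2-high ones. The parental arrays gave Pttg1 at 5.81 in DBA/2J and 11.92 in C57BL/6J.

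**Figure D5:**
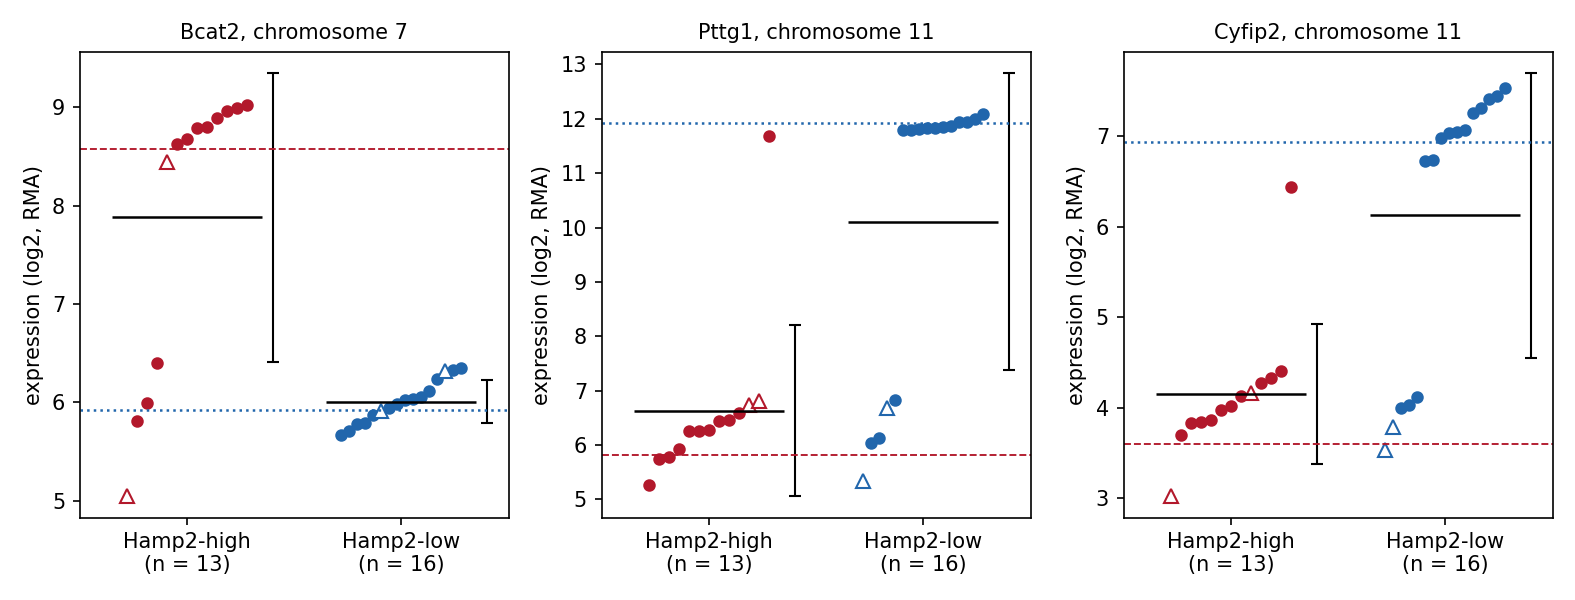
Levels of Bcat2, Pttg1 and Cyfip2 in log2 units in 13 Hamp2-high (red) and 16 Hamp2-low (blue) families, with symbols and lines as in the plot of hepcidin transcripts. Each gene has families near 1 parent and families near the other, and the Hamp2-high and Hamp2-low groups overlap in all 3.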

How the data were processed

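Heart RNA of 99 male mice, 1 per strain, was hybridised to Affymetrix HT_MG-430A arrays. The deposited matrix gives log2 expression of 22416 probe sets. GCOS and RMA are named, with no version, per the submitters' processing notes, and the arrays share a distribution (medians 3.97 to 4.07). No probe-level values were used, and the effect of probes that may be shared between the 2 hepcidin genes was not tested. Of the probe sets, 89 are controls, 17783 had 1 gene symbol, 284 several and 4349 none here. Each of 11725 genes was represented by its brightest probe set, and genes with a mean over 99 arrays above the 40th percentile (3.59) were kept, 7512 without Hamp2. The fit used R 4.3.3 and its package limma 3.58.1 (lmFit, then eBayes, with no covariate) and Benjamini-Hochberg adjustment. Differences are on the log2 scale, and a value marked as fold is linear. The script was tested on simulated data. Gene order and promoters came from RefSeq tables on GRCm38.p6, and promoters were aligned with Biopython 1.88. Tables were read with data.table (1.17.8), pandas (2.3.3) and numpy (2.4.6) under Python 3.11.15, and figures were drawn with matplotlib (3.10.9).

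Named genes were Hamp2, Hamp, all called genes (none in the full split), 10 iron genes, chromosome 7 genes whose parents differ by at least 1 log2 unit, and the 10 nearest tested genes. Others were chosen after their values were seen. The 5 genes most correlated with Hamp2 were not listed, because Hamp2 falls into separate clusters. The age label (16 to 113 weeks) rises almost throughout by 1 week with each array, unlike the 16 weeks of the protocol in the labels. It was not used. The members and lists were chosen with earlier results of these data known.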

Additional observations from a re-analysis of the deposited data

How the results depend on the processing

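The 14 genes at an adjusted p under 0.10 kept their sign under every alternative run on them, while 7 of 9 uncalled iron genes (Bmp6, Hmox1, Id1, Slc40a1, Smad7, Tfrc and Usf2) changed sign under at least 1. Against 0 called genes in the full split, 1 was called without the filter on dim genes, 3 above the 60th percentile or with median centring of each array, and 2 with the mean of a gene's probe sets or with every probe set on its own. Without BXD42, 8 were called, and 9 with the Hamp2 level as a continuous predictor, 1 of them (Hamp) an iron gene. The arrays with the higher title numbers alone gave 3, and the Gapdh 3′ minus 5′ difference as a covariate gave 4. All of these lie on chromosome 7 and had the parental sign. Array weights called 13 genes, 11 on chromosome 7 and 2 on other chromosomes, all 13 with the parental sign. Without BXD24/TyJ-Cep290<rd16>/J, with the title number group as a block, with the lower title numbers alone and without the arrays that carried markers of another organ, 0 were called.

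The looser counts were added after seeing the data. Chromosome 7 genes at an unadjusted p under 0.001 numbered 13, but 1 with the lower title numbers, 8 with the higher ones and 5 without the arrays that carried markers of another organ. Genes at an adjusted p under 0.10 numbered 14, but 8 with every probe set on its own, 9 without BXD42, 9 with the continuous predictor, 9 with the Gapdh covariate, 3 with the higher title numbers, and 0 with the lower ones or without those arrays. The last settings leave fewer families, and the cause of the other shifts was not tested. No paired analysis was possible because the groups hold different strains, and nothing in the labels pairs them.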
